A study of Mus musculus with 24 samples.

Results

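The arrays described here come from 2 mouse lung tumour cell lines, cRAF_cMYC (line 6 in the labels) and gammaA7 (line 8), and carry the replicate numbers 1 and 2. They were picked by line and replicate number in the labels, with earlier results of these data known. The replicate 1 array of each line was set against the replicate 2 array of each line, 2 arrays against 2. So 4 of the 24 arrays of the series enter the comparison. Each line also has 1 array without a replicate number, and these 2 unnumbered arrays were then placed between both patterns.

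Both lines were grown out of lung tumours of 8-month-old mice that carried c-Myc and c-Raf transgenes together. All 11 tumour lines share this double transgenic origin and were kept in DMEM with 10% fetal calf serum and passaged weekly, up to 50 passages. The promoters of the transgenes, the passage at which each array was made, and whether a line is 1 clone are not stated in the labels. The 9 other tumour lines (16 arrays) and alveolar epithelial type II cells of healthy mice without the transgenes (2 control arrays) serve as background.

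Arrays of 1 cell line that bear replicate numbers normally measure how closely repeat cultures or repeat hybridisations of that line resemble each other, and the difference between lines is read against that spread. The transcription factor c-Myc promotes cell growth and division, and the MAPK cascade passes signals from Ras through kinases to ERK. Lines grown out of lung tumours in serum may hold epithelial, mesothelial or fibroblast-like programmes, and lipid synthesis, secreted factors and matrix genes are among the genes that such programmes set. The labels do not say that repeat arrays came from separate cultures, so the p-values below measure only the spread between these arrays, part of which may be technical.

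The 4 arrays had median signals of 61.6 to 65.5 and actin 3' to 5' ratios of 1.11 to 1.21, within the ranges of the other tumour arrays (53.2 to 75.5 and 1.03 to 1.32). Values are deposited signals on a linear scale, and each array had been scaled to the same trimmed mean. Tests and differences used log2(signal + 32), which compresses differences between very low signals. Of the 12488 probe sets of the array, 7670 passed a filter on low values, and each of the 5825 genes is represented by its brightest tested probe set. The number of arrays limits the precision.

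The 4 arrays paired by replicate number and not by the line in their labels. The replicate 1 arrays labelled cRAF_cMYC and gammaA7 had 38 of 7670 probe sets at least 2-fold apart, and the replicate 2 arrays labelled cRAF_cMYC and gammaA7 had 35. The 2 numbered arrays labelled cRAF_cMYC had 445 such probe sets, and those labelled gammaA7 had 435. In the other lines with both numbers, replicates 1 and 2 were at least 2-fold apart on 26 (A2C12), 20 (B3) and 68 (gammaB8) probe sets. Arrays of different lines among the other tumour arrays were that far apart on 104 to 1998. An unnumbered array and a numbered array of the same other line were that far apart on 219 to 983 probe sets (7 pairs in A2B1, A2C12, B3 and gammaB8). So the counts across the line labels lay in the range of replicates 1 and 2 of 1 line. The counts within a line label lay above that range, and inside both the range of different lines and that of unnumbered against numbered arrays of 1 line. The Spearman correlations across probe sets were 0.987 and 0.985 across the labels with the same number and 0.936 and 0.934 within a label. Where this pairing comes from was not tested, and whether the difference between the numbers is one between lines, cultures or rounds of work cannot be told apart from these labels. "Replicate 1" and "replicate 2" therefore stand for the arrays so labelled, not for states of a line.

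**Figure D1:**
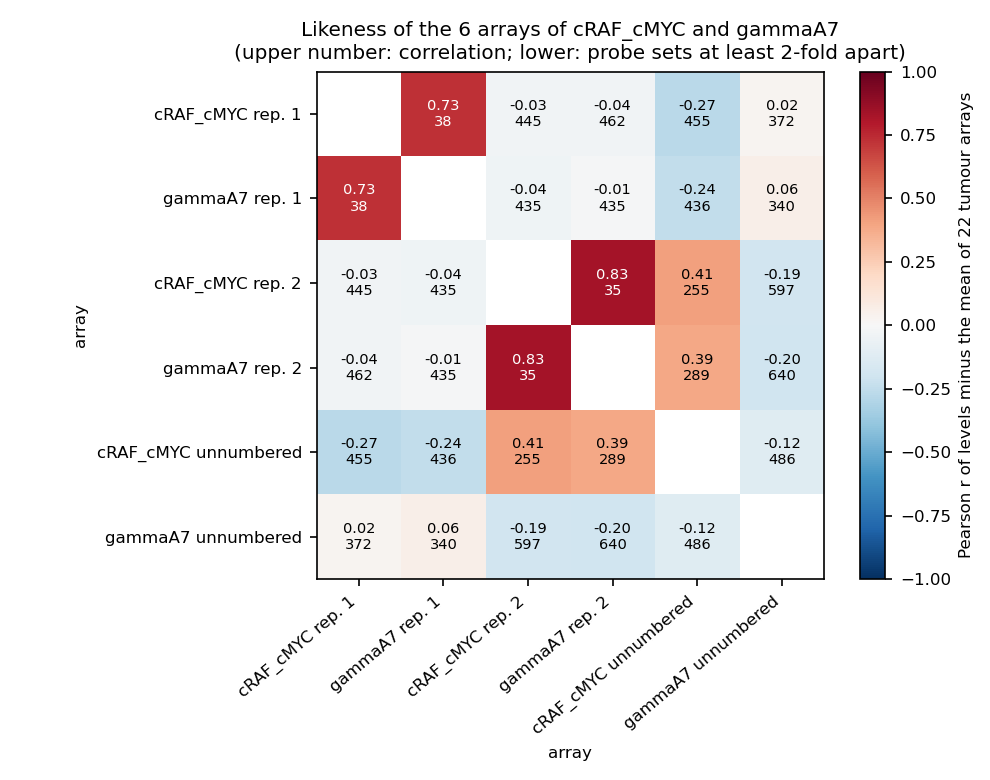
Likeness of the 6 arrays labelled cRAF_cMYC and gammaA7: the colour and the upper number in each cell give the Pearson correlation of log2 levels after subtracting each probe set's mean over 22 tumour arrays, and the lower number gives the probe sets at least 2-fold apart. The replicate 1 arrays (0.73, 38 probe sets) and the replicate 2 arrays (0.83, 35 probe sets) form pairs, and the cRAF_cMYC unnumbered array lies nearest to the replicate 2 pair (0.41 and 0.39).

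On the replicate 1 arrays, 12 of 19 tested genes of cholesterol and fatty acid synthesis were lower and 4 of 5 mesothelial markers higher than on the replicate 2 arrays, while matrix genes moved both ways. The genes furthest higher on replicate 1 were the acute-phase gene Saa3 and the G protein subunit gene Gnai1, with log2 differences of 4.95 and 3.89. The hormone precursor gene Cck and the retinoic acid binding protein gene Crabp1 were the furthest lower, at -6.58 and -5.88. Saa3 and Gnai1 on replicate 2 and Cck and Crabp1 on replicate 1 had very low signals, so the offset sets the size of these differences. With an offset of 1 in place of 32 they were 7.81 for Saa3 and 6.86 for Gnai1. They were then -8.35 for Cck and -9.02 for Crabp1, which turns the order of Cck and Crabp1. A second Gnai1 probe set differed by 2.32 with the offset of 32. Of 7670 probe sets, 187 were higher (2.44%) and 191 lower (2.49%) on replicate 1, where a call needs a 2-fold difference or more and a Benjamini-Hochberg adjusted p under 0.05 in limma. That is 378 in all, or 4.93%, for 157 genes higher (2.7% of genes) and 147 lower (2.52%). Of these probe sets, 87 differed at least 4-fold, 35 higher and 52 lower.

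The differences were alike under both line labels. Same-numbered arrays of both labels were as close as repeats of 1 line, so the counts and correlations below restate that pairing. Whether the 2 labels stand for separate lines on these arrays was not tested. Of the 445 probe sets at least 2-fold apart in cRAF_cMYC, 427 lay on the same side in gammaA7, and of the 435 in gammaA7, 416 lay on the same side in cRAF_cMYC. A single probe set was at least 2-fold apart in opposite directions. In total 317 (4.13%) were at least 2-fold apart the same way in both lines, 156 higher (2.03%) and 161 lower (2.1%) on replicate 1. The differences under both labels had a Pearson correlation of 0.816 and a Spearman correlation of 0.636 across the 7670 probe sets. Probe sets are not independent replicates, and none of the 4 arrays is shared between the labels. The same correlations between any other pair of the 5 lines with both numbers lay between -0.0332 and 0.0469 (Pearson). The arrays of the 2 numbers did not overlap on 4617 probe sets (60.2%), against 1724 (22.5%) when the same 4 arrays were divided by line.

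Divided by line, the 4 arrays gave no call. No probe set passed for cRAF_cMYC against gammaA7 in limma (0%), and the largest difference was 1.24 on the log2 scale. The smallest adjusted p was 0.9998, and 88 probe sets had an unadjusted p under 0.05. This fit leaves the difference between the numbers in the spread within each line, which widens its standard errors. With the number as a block in limma there was again no call. The smallest adjusted p was then 0.598, with 571 probe sets at an unadjusted p under 0.05. The absence of calls on 4 arrays does not show that the lines are alike. No probe set was at least 2-fold apart between the lines the same way in both numbers (0%). The 6 genes with the largest line difference were Csf3r, Ppp6c, Inpp5d, Nhsl2, Acy3 and Uso1. For Csf3r, the receptor of granulocyte colony-stimulating factor, the signals were 128 and 152 on the cRAF_cMYC arrays and 61.1 and 25.01 on the gammaA7 arrays, replicate 1 first. Both unnumbered arrays lay low for this gene, at 24.9 (cRAF_cMYC) and 22.4 (gammaA7), so the unnumbered arrays did not show that difference.

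**Figure D2:**
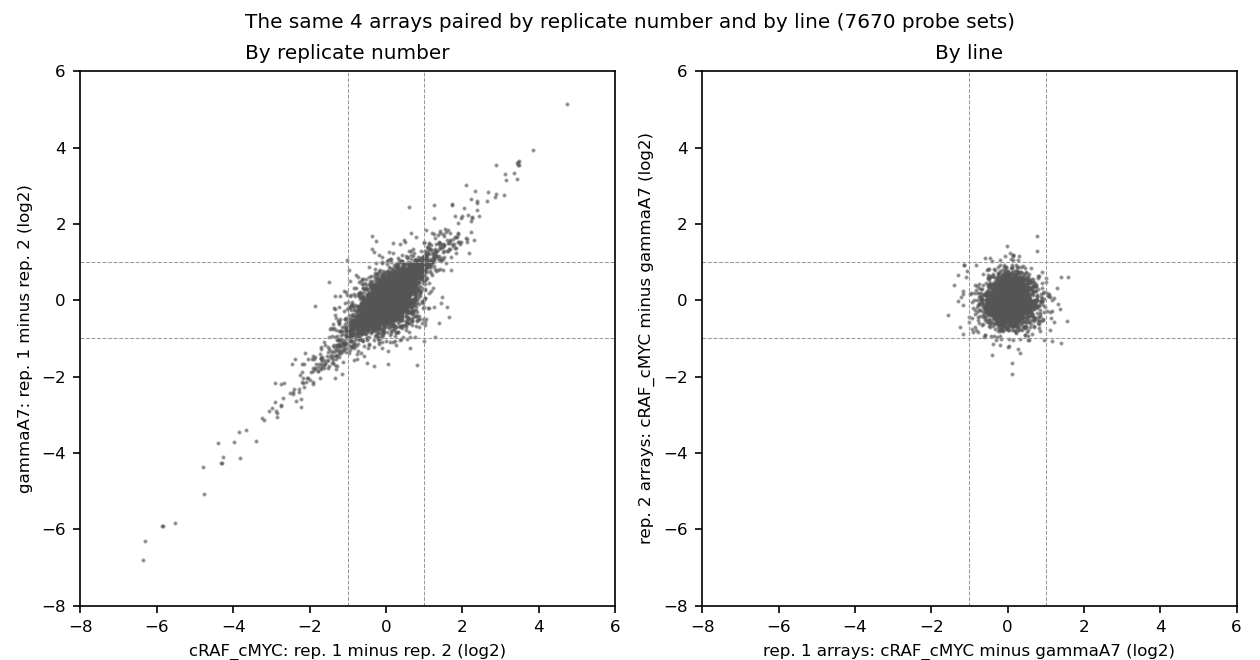
Each point is 1 of 7670 probe sets, with differences of log2(signal + 32). The left panel plots replicate 1 minus replicate 2 in gammaA7 (vertical) against cRAF_cMYC (horizontal), and the points follow the diagonal from -6.58 to 4.95 in the mean of both lines. The right panel plots cRAF_cMYC minus gammaA7 on the replicate 2 arrays (vertical) against the replicate 1 arrays (horizontal), where no point lies beyond 2-fold the same way in both (dashed lines mark 2-fold).

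The difference between the numbers was larger in these 2 lines than in the 3 other lines with both numbers. In limma, replicate 1 minus replicate 2 in cRAF_cMYC and gammaA7 exceeded that in A2C12, B3 and gammaB8 on 187 probe sets (2.44%) and fell short of it on 209 (2.72%), 396 in all (5.16%). Of the 378 probe sets called above, 339 were also called here in the same direction. Within A2C12, B3 and gammaB8, replicate 1 against replicate 2 gave no call (0%) in limma, with 337 probe sets at an unadjusted p under 0.05 and a smallest adjusted p of 0.913.

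Among the 12 genes furthest higher on replicate 1 were Saa3, Cxcl1, Hp and Itih2. Saa3, an acute-phase serum amyloid A gene, had signals of 1011 and 1177 on the replicate 1 arrays of cRAF_cMYC and gammaA7, and 6.64 and 2.08 on their replicate 2 arrays. The 16 arrays of other lines ranged from 28.7 to 1776, so the replicate 2 arrays lay below every other line and the replicate 1 arrays within their range. The log2 difference was 4.95 ± 0.13 (SE, adjusted p = 2.4e-05), and the unnumbered arrays had 105 (cRAF_cMYC) and 2966 (gammaA7). Cxcl1, a chemokine for neutrophils, had 2896 and 2762 on replicate 1 and 236 and 197 on replicate 2. Here too the replicate 2 arrays lay below the other lines (440 to 2934), and the log2 difference was 3.53 (adjusted p = 5.6e-05). Hp, the gene of the haemoglobin-binding plasma protein haptoglobin, had 738 and 809 on replicate 1 and 72.6 and 89.7 on replicate 2 (log2 difference 2.83, adjusted p = 0.00012). Itih2, a heavy chain of the inter-alpha-trypsin inhibitor, had 376 and 384 on replicate 1 and 5.93 and 14.4 on replicate 2. Its unnumbered arrays were at the 2 ends, with 5.47 in cRAF_cMYC and 620 in gammaA7.

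Of the list of chemokines and inflammation, 2 of 24 tested genes rose and 2 fell on replicate 1, beside 2.7% of all genes higher and 2.52% lower, and the median difference was -0.08 against 0.01 over all genes. Saa3 and Cxcl1 rose. Cxcl5, another chemokine for neutrophils, fell by 2.95 on the log2 scale (adjusted p = 7.8e-05), from 275 and 316 on replicate 2 to 10.7 and 9.79 on replicate 1. The unnumbered arrays had 663 (cRAF_cMYC) and 9.01 (gammaA7), 1 on the side of each number. Tnfaip2, a gene induced by tumour necrosis factor, had 438 and 457 on replicate 2 and 49.8 and 58.2 on replicate 1, a fall of 2.48 (adjusted p = 0.00012). Cxcl1 and Cxcl5 thus moved in opposite directions on the same arrays.

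The other genes furthest higher were Igf2, Bmp4, Aldh1a1, Vnn1, Gnai1, Prss23, Emb and Krt19. Igf2, an imprinted gene for an insulin-like growth factor, had 455 and 633 on replicate 1 and 12.9 and 23.3 on replicate 2, a log2 difference of 3.51 (adjusted p = 0.0002). Igf2r, the receptor that takes this factor up for degradation, moved the other way, from 383 and 302 on replicate 2 to 77.8 and 90.5 on replicate 1 (log2 difference -1.68, adjusted p = 0.0011). Of 9 tested imprinted genes 1 rose and 2 fell, beside 2.7% and 2.52% of all genes, the third being Peg3 (-1.26, adjusted p = 0.0013). Bmp4, a ligand of the TGF-beta family, had 1483 and 1533 on replicate 1 and 102 and 103 on replicate 2 (3.51, adjusted p = 3.1e-05). Aldh1a1, an enzyme that makes retinoic acid, had 9195 and 8879 on replicate 1 and 1019 and 972 on replicate 2 (3.14, adjusted p = 5.2e-05). Vnn1, a pantetheinase, had 420 and 450 on replicate 1 against 29.6 and 9.49 on replicate 2, where both arrays lay below the 114 to 2240 of the other lines. Gnai1 (an inhibitory G protein subunit), Prss23 (a serine protease), and Emb (a surface partner of lactate transporters) differed by 3.89, 3.57 and 3.50. For Prss23 the signals were 2722 and 2560 on replicate 1, 214 and 174 on replicate 2 and 483 to 2077 on the other lines, so replicate 1 lay above and replicate 2 below every other line.

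Of the 12 genes furthest lower on replicate 1, 7 were at least 2-fold higher on both replicate 2 arrays than on any array of the other lines. Cck, which encodes the peptide hormone cholecystokinin, had 3868 and 4538 on the replicate 2 arrays of cRAF_cMYC and gammaA7. It had 15.1 and 9.20 on their replicate 1 arrays and 1.45 to 34.1 on the arrays of other lines, so the replicate 1 arrays looked like the other lines. Its log2 difference was -6.58 ± 0.14 (SE, adjusted p = 9.7e-06), the unnumbered cRAF_cMYC array had 2248, and the unnumbered gammaA7 array had 15.9. Crabp1, which binds retinoic acid in the cytosol, had 1961 and 2101 on replicate 2 and 2.27 and 3.65 on replicate 1 (-5.88, adjusted p = 9.7e-06). The unnumbered arrays were both well below replicate 2 for Crabp1, at 189 (cRAF_cMYC) and 17.1 (gammaA7), within the 2.11 to 218 of the other lines. Thy1, a surface glycoprotein of fibroblasts, neurons and T cells, had 1303 and 1251 on replicate 2 and 17.0 and 6.35 on replicate 1 (-4.92, adjusted p = 3.1e-05). Mdk, the growth factor midkine, had 409 and 557 on replicate 2, 495 on the unnumbered cRAF_cMYC array and at most 17.1 on the 16 arrays of other lines. Fst, the activin-binding protein follistatin, had 1483 and 1386 on replicate 2, 72.3 and 98.2 on replicate 1 and 3256 on the unnumbered cRAF_cMYC array, with other lines at 2.07 to 56.9.

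Lgals3 stood apart from this, because its replicate 1 arrays were the unusual ones. This gene encodes galectin-3, a sugar-binding protein of macrophages and many epithelial and tumour cells. Its signals were 14.3 and 3.06 on the replicate 1 arrays, 2098 and 1952 on the replicate 2 arrays and 415 to 5729 on the other lines. The log2 difference was -5.67 ± 0.16 (SE, adjusted p = 2.4e-05). The unnumbered gammaA7 array had 11.0, as low as replicate 1, and the unnumbered cRAF_cMYC array had 1521. So 3 of the 22 tumour arrays were low for Lgals3: both replicate 1 arrays and the unnumbered gammaA7 array.

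Cd34, Crip1, Bcat1, Pla2g7, Col6a3 and Dkk3 complete the 12 genes furthest lower, with log2 differences of -4.58, -4.29, -4.06, -3.98, -3.52 and -3.16. Cd34 (a surface sialomucin), Crip1 (a LIM domain protein) and Bcat1 (which starts the breakdown of branched-chain amino acids in the cytosol) were also high in some other lines, up to 1389, 1212 and 1183. Pla2g7, which breaks down platelet-activating factor, had 622 and 595 on replicate 2 and at most 40.7 on the other lines. Its unnumbered cRAF_cMYC array had 16.4, so here that array did not follow replicate 2.

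**Figure D3:**
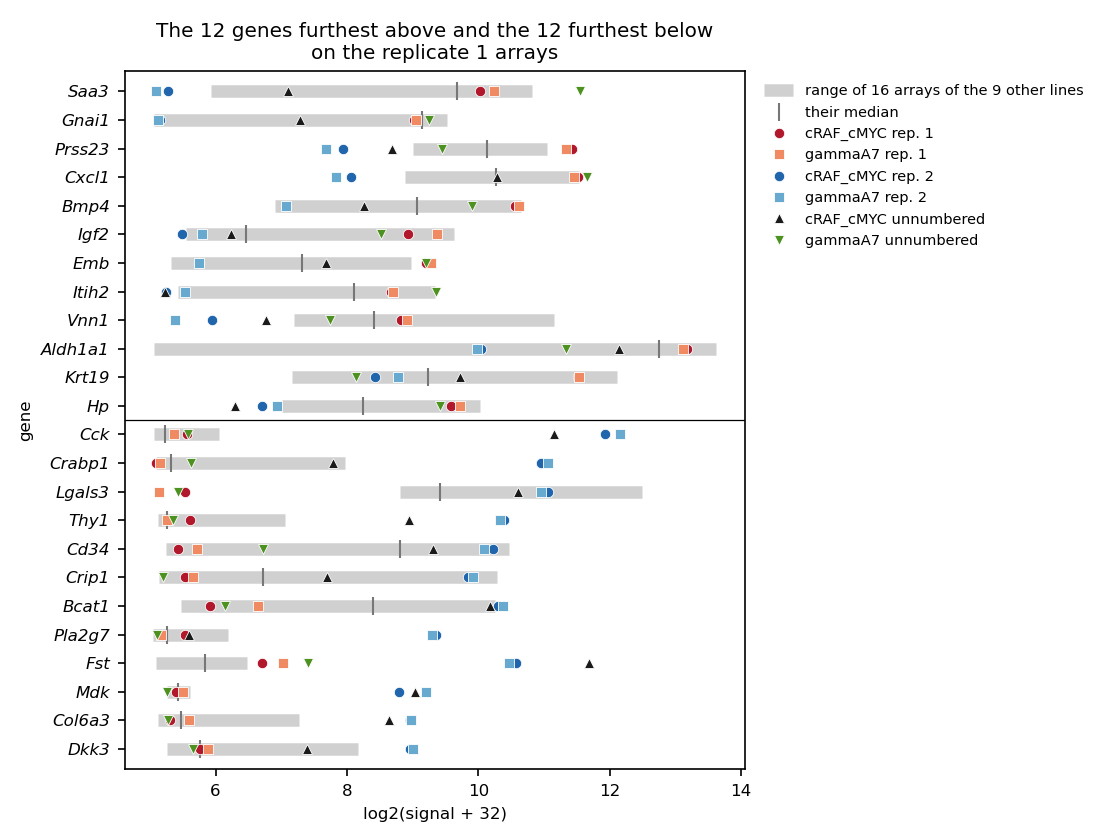
Levels as log2(signal + 32) of the 12 genes furthest higher (above the line) and the 12 furthest lower (below the line) on the replicate 1 arrays; points are the 6 arrays labelled cRAF_cMYC and gammaA7, grey bars the range and ticks the median of 16 arrays of 9 other lines. Points of the same number lie together in each gene, Cck on replicate 2 lies far outside the grey bar, and Lgals3 on replicate 1 lies below it.

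Genes of cholesterol and fatty acid synthesis were lower together on replicate 1. These enzymes turn acetyl-CoA into sterols and fatty acids, and many are switched on together by sterol regulatory element binding proteins (SREBPs) when cell sterol is low. Of 19 tested genes of 26 listed, 12 fell and none rose on replicate 1, beside 2.52% of all genes lower and 2.7% higher. All 19 had a difference below 0, 18 of them with no overlap between the numbers (61.6% of all genes did not overlap), and the median difference was -1.09 against 0.01 over all genes. The medians within each line were -1.07 (cRAF_cMYC) and -1.09 (gammaA7).

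Nsdhl, a sterol dehydrogenase, had 169 and 151 on the replicate 1 arrays of cRAF_cMYC and gammaA7 and 619 and 609 on their replicate 2 arrays. Its log2 difference was -1.75 ± 0.11 (SE, adjusted p = 0.00042). Fdps, which makes farnesyl diphosphate, had 1337 and 1589 on replicate 1 and 4307 and 5311 on replicate 2 (-1.69, adjusted p = 0.0014). Sc5d, a late sterol desaturase, fell by 1.65 on the log2 scale (adjusted p = 0.0027). Fdft1 (squalene synthase) and Idi1 (isopentenyl diphosphate isomerase) fell by 1.51 and 1.47. Hmgcs1, which makes the substrate of the rate-limiting step, had 315 and 255 on replicate 1 and 633 and 572 on replicate 2 (-1.01, adjusted p = 0.0062). Of the fatty acid genes, Elovl6, which lengthens palmitate, fell by 1.65 (adjusted p = 0.00079) and the synthase Fasn by 1.32 (adjusted p = 0.0011). The desaturases Scd1 and Scd2 had differences of -0.60 and -0.45, under the 2-fold threshold, and Srebf1, which encodes the SREBP form most tied to fatty acid synthesis, -0.43 (adjusted p = 0.084). Dhcr7, the last enzyme of the Kandutsch-Russell route to cholesterol, had -0.12 (adjusted p = 0.58).

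Set against the other lines, the replicate 2 arrays were the high ones. For 8 of the 12 called genes both replicate 2 arrays lay above every array of the other lines, as for Nsdhl (185 to 474 in the other lines) and Fdps (760 to 2421). For 7 of the 12 both replicate 1 arrays lay below the median of the other lines, and for 1, Nsdhl, below all of them. The unnumbered arrays did not divide between both patterns here. On a scale where the replicate 2 mean is 0 and the replicate 1 mean is 1, the median over the 12 genes was 0.645 for the unnumbered cRAF_cMYC array and 0.912 for the unnumbered gammaA7 array. The cRAF_cMYC array was nearer replicate 1 in 8 of 12 genes and the gammaA7 array in 12 of 12. For Fdps both unnumbered arrays (1838 and 1580) were near the median of the other lines, 1522.

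Because these genes moved together, the 250 bases before the start of 3 of them are shown, from RefSeq (GRCm38.p6), each on the + strand, 5′ to 3′. Capitals mark matches, on either strand, to the CCAAT box (CCAAT, read as ATTGG on the other strand) and, in Hmgcs1 only, to TCACNCCAC, the letters of a sterol regulatory element. Hmgcs1 is at chr13:119690101-119690350, Nsdhl at chrX:72918271-72918520 and Idi1 at chr13:8885356-8885605.
Hmgcs1: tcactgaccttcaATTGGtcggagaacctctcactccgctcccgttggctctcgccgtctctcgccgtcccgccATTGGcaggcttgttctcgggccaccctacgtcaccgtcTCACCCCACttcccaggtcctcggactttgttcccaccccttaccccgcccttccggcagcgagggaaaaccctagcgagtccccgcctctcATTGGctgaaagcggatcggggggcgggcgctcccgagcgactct
Nsdhl: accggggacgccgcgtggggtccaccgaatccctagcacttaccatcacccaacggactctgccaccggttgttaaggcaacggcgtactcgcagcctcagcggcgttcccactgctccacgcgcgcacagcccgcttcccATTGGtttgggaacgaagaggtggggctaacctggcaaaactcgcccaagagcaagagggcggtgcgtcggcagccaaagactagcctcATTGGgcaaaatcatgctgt
Idi1: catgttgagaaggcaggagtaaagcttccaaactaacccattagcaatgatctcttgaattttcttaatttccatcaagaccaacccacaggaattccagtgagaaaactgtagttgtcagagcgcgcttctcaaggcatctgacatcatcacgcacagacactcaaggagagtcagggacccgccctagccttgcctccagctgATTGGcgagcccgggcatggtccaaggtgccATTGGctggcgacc
The element in Hmgcs1 lies at positions -137 to -129 from the start, between CCAAT boxes, and none of the matches overlap. Of the 12 called genes, 9 had a promoter in the table, and the CCAAT box was in 8 of these 9 (88.9%), against 10133 of 27025 genes (37.5%) in windows of the same length. TCACNCCAC was in 1 of the 9 (11.1%) and in 331 of 27025 genes (1.22%). Over all called genes with a promoter, CCAAT was in 44 of 109 lower genes (40.4%) and 47 of 117 higher genes (40.2%), near the share of all genes. For TCACNCCAC the counts were 5 of 109 (4.59%) and 1 of 117 (0.855%). Of 3 other motifs searched in the same windows, the AP-1-type letters TGANTCA were in 11% of lower and 12.8% of higher genes (7.82% of all), and the E box CACGTG in 12.8% and 11.1% (6.86% of all). The TATA letters TATAAA were in 17.4% and 15.4% (14.3% of all). The motifs were chosen with the differences known, and a match is a description of letters, not a binding site.

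**Figure D4:**
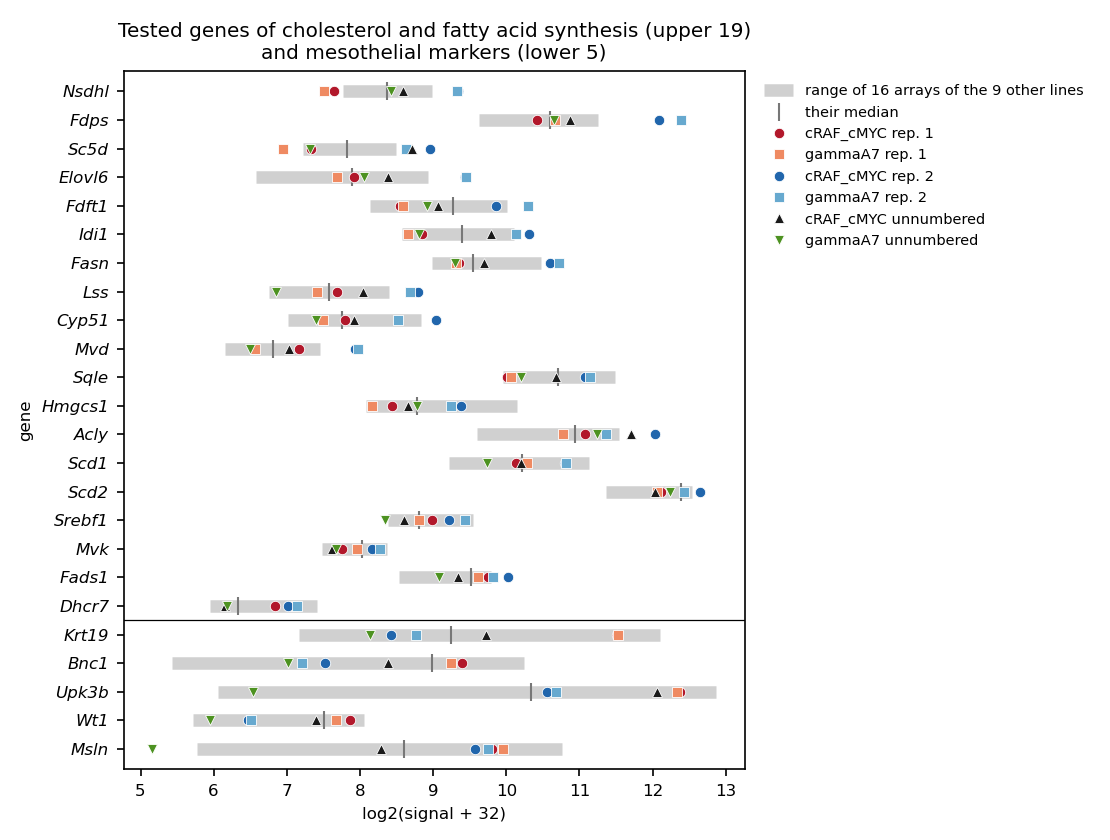
Levels as log2(signal + 32) of the 19 tested genes of cholesterol and fatty acid synthesis (above the line) and the 5 tested mesothelial markers (below the line), with points, bars and ticks for the same arrays as for the largest differences. The replicate 2 points lie to the right in the lipid genes and to the left in Krt19, Bnc1, Upk3b and Wt1, while the unnumbered gammaA7 array is the lowest of the 6 for all 5 mesothelial markers.

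Matrix genes moved in both directions. Of 34 tested genes 6 rose and 5 fell on replicate 1, beside 2.7% and 2.52% of all genes, with a median difference of 0.06. Lox, which cross-links collagen and elastin, had 5767 and 5378 on replicate 1 and 877 and 733 on replicate 2 (2.75, adjusted p = 0.00014), and the replicate 2 arrays lay below the 1821 to 6810 of the other lines. Nid2 (a basement membrane nidogen), Lama5 (a laminin chain) and Ccn2 (a matricellular protein) rose by 2.49, 2.22 and 1.72. Among those that fell, Col6a3, a collagen VI chain, had 468 and 473 on replicate 2 and 7.62 and 16.2 on replicate 1. Tnc, the matrix protein tenascin-C, had 755 and 670 on replicate 2 and 66.9 and 66.5 on replicate 1 (-2.91, adjusted p = 7.8e-05), with 1348 on the unnumbered cRAF_cMYC array. A second Tnc probe set differed by -1.61. Thbs2 (a thrombospondin) and Tgfbi (a secreted matrix protein) fell by 2.37 and 2.16. The chains of the main fibrillar collagen, Col1a1 and Col1a2, had 0.75 and 0.38, under the 2-fold threshold. Basement membrane genes differed in sign among themselves: beside Nid2 and Lama5, the collagen IV chains Col4a1 and Col4a2 had -0.58 and -0.70, Col18a1 -0.65 and Nid1 -0.49, all under the 2-fold threshold.

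The list of mesenchymal transition was also divided, with 2 of 13 tested genes higher and 3 lower, beside 2.7% and 2.52% of all genes, and a median of -0.06. Tgfb2 and Tgfb3, both TGF-beta ligands, rose by 1.45 and 1.63. Besides Tgfbi, Hmga2, a chromatin protein of embryonic cells, fell by 1.66 and S100a4, a calcium-binding protein of motile cells, by 1.13. Tagln, an actin-binding protein of smooth muscle, had 554 and 611 on replicate 2, 55.8 and 61.6 on replicate 1, and 3048 on the unnumbered cRAF_cMYC array, above all other tumour arrays (47 to 857). It was 1 of 3 genes of 18 that fell in the contractile list, and none rose.

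Mesothelial markers were higher on replicate 1, with 4 of 5 tested genes called, beside 2.7% of all genes. Mesothelial cells line the pleura around the lung. Krt19, a keratin of simple epithelia and mesothelium, had 2902 and 2927 on replicate 1 and 311 and 405 on replicate 2 (2.93, adjusted p = 0.00015). Upk3b, a mesothelial membrane protein, had 5275 and 5132 on replicate 1 and 1469 and 1616 on replicate 2 (1.73, adjusted p = 0.00044). Bnc1 and Wt1, transcription factors of mesothelium, rose by 1.95 and 1.28. Msln, mesothelin, had 864 and 965 on replicate 1 and 728 and 828 on replicate 2, a difference of 0.23 (adjusted p = 0.28). Summed over the 5 markers on the array, the signal was 9771 to 9882 on replicate 1, 2715 to 3025 on replicate 2 and 378 to 13810 in the other lines. The unnumbered cRAF_cMYC array had 5781 and the unnumbered gammaA7 array 442, the latter with 61.1 for Upk3b and 3.68 for Msln. So on these markers the unnumbered gammaA7 array was unlike both patterns. On bulk RNA, fewer cells of a type and less RNA per cell cannot be told apart.

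Of the other lung cell types, 4 marker sums (those of lymphoid cells, myeloid cells, type II cells, and club with ciliated cells) were below both controls on all 4 arrays by a wide margin, while type I and endothelial sums were closer to the controls. The type II markers Sftpc and Sftpb had 11.4 to 35.2 and 20.1 to 36.2 on the 4 arrays, against 787 to 11196 and 194 to 7067 in the 2 controls. The type II sum over 8 genes was 132 to 158 on replicate 1 and 125 to 136 on replicate 2. Myeloid markers summed to 772 to 912 and 888 to 928, against 38660 to 56390 in the controls, and Lyz2, Ctss, Tyrobp and Ptprc were at most 13.0, 15.7, 10.4 and 9.53 on the 4 arrays. Lymphoid sums were 288 to 295 and 253 to 313, and those of club and ciliated cells 370 to 384 and 405 to 432, against 1831 to 9082 and 7534 to 20040 in the controls. The type I sum was 2690 to 2697 on replicate 1 and 2798 to 3079 on replicate 2, within the 1925 to 4143 of the other lines and under the 3609 to 5083 of the controls. Of its markers, Pdpn, a surface glycoprotein also found on mesothelium, had 688 to 1025 on the 4 arrays against 109 and 307 in the controls, and Ager, which defines type I cells, had at most 17.4. No gene of the myeloid, lymphoid, club and ciliated, or type II lists was called, beside 2.7% of all genes higher and 2.52% lower. The epithelial junction and keratin sum was 3796 to 3871 on replicate 1 and 1064 to 1117 on replicate 2. Krt19 was the 1 gene called of 16 tested. It had 2902 and 2927 on replicate 1 and 311 and 405 on replicate 2, most of the difference in that sum. Krt8 and Epcam, defining epithelial markers, had at most 96.2 and 6.68 on the 4 arrays. The endothelial sum was 2700 to 2857 on replicate 1 and 1155 to 1428 on replicate 2, against 1826 to 3971 in the controls. Eng and Flt1 were called higher of 6 tested. Eng alone had 2505 and 2661 on replicate 1 and 1049 and 1318 on replicate 2, most of that sum. Pecam1, Vwf and Cldn5, which define endothelial cells, had at most 39.4, 6.66 and 15.0. The part of any other cell type in the differences was not tested.

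None of 30 tested cell cycle genes, 23 Myc targets, 15 cytosolic ribosomal protein genes, 22 respiratory chain genes, 14 heat shock genes and 12 p53 targets was called, with list medians of -0.02, -0.03, -0.01, -0.01, 0.04 and 0.20. Myc had 361 and 337 on replicate 1 and 302 and 258 on replicate 2 (0.29, adjusted p = 0.17). None of 14 tested genes of the Ras, Raf, Mek, Erk and Myc families was called. Of 13 genes downstream of Raf and MAPK, 1 rose and 1 fell. Over all genes 2.7% were called higher and 2.52% lower, so no call in lists of this size lies near that share. Dusp6, a phosphatase that acts on ERK, had 1759 and 1713 on replicate 1 and 810 and 702 on replicate 2 (1.17, adjusted p = 0.0022). Fosl1, an AP-1 subunit, had 290 and 304 on replicate 1 and 826 and 923 on replicate 2 (-1.46, adjusted p = 0.00091). The CDK inhibitors Cdkn2a and Cdkn2b rose by 1.10 and 1.57 on replicate 1, with replicate 2 below the other lines for both. Their signals were 82.3 and 78.2 against 18.8 and 21.9 for Cdkn2a, and 107 and 123 against 12.4 and 22.7 for Cdkn2b.

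The remaining lists had a few called members each, and the shares of all genes called were 2.7% higher and 2.52% lower. Of 18 genes of growth arrest and serum starvation 2 rose and 2 fell. Igfbp4, a binding protein of insulin-like growth factors, rose by 1.68, and Sfrp1, a secreted Wnt antagonist, by 1.53. A second Igfbp4 probe set differed by 0.67. Pdgfra, a receptor of platelet-derived growth factor, fell by 1.83, with 655 and 535 on replicate 2, 657 on the unnumbered cRAF_cMYC array and 89.9 on the unnumbered gammaA7 array. A second Pdgfra probe set differed by only -0.23. Of 19 interferon response genes 1 rose (Ifi27, 1.33) and 1 fell (Ifi202b, -2.75). Ifi202b had 202 and 188 on replicate 2, 74.5 on the unnumbered cRAF_cMYC array and at most 8.94 on the other lines. H2-K1, a class I antigen-presenting molecule, was 1 gene called higher of 13 (1.49), but 2 other probe sets for it differed by only 0.69 and 0.14. Of 21 immediate early genes 3 rose, 4 had a difference below 0, and the list median was 0.43 against 0.01 over all genes. The arrays of the 2 numbers did not overlap on 19 of these 21 genes (61.6% of all genes did not overlap). Of 15 matrix remodelling genes 2 rose and 2 fell, among them the lysosomal protease Ctsl (-1.26) and the stromelysin Mmp10 (-1.43). The lists of type I cells, endoplasmic reticulum stress, oxidative stress and glycolysis had 1 called gene each: Hopx (1.23) and Atf3 (1.26) rose, and Gsta4 (-1.36) and Adm (-1.04) fell. A second Atf3 probe set differed by 0.21.

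The unnumbered cRAF_cMYC array followed the replicate 2 pattern in part. Position was measured on the 317 probe sets at least 2-fold apart the same way in both lines, with 0 at the mean of the replicate 2 arrays and 1 at the mean of the replicate 1 arrays. This array had a median position of 0.34 (quartiles 0.0402 and 0.614), and 111 of 317 probe sets (35%) were nearer replicate 1. All 16 arrays of other lines had higher medians over both directions together, from 0.456 to 0.981. This did not hold in each direction. On the 156 probe sets higher on replicate 1 its median was 0.376, above the A2C12 arrays (0.27, 0.265 and 0.258) and below the remaining lines. On the 161 lower ones it was 0.287, below every array of other lines (0.65 or more). Its 2 nearest arrays by the correlation of centred levels were the replicate 2 arrays of cRAF_cMYC (0.41) and gammaA7 (0.39), and the next, A2C12, had 0.10. It still differed at least 2-fold from the replicate 2 arrays on 255 and 289 probe sets. By this count the unnumbered arrays of gammaA3 (302) and gammaD1 (306) were nearly as close as the gammaA7 replicate 2 array. In the other lines an unnumbered and a numbered array of 1 line were that far apart on 219 to 983, and replicates 1 and 2 on 20 to 68.

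The unnumbered gammaA7 array lay nearer replicate 1, but within the range of arrays of other lines. Its median position was 0.875 (quartiles 0.51 and 1.15), and 239 of 317 probe sets (75.4%) were nearer replicate 1. Of the 16 arrays of other lines 12 had a lower median, and their share nearer replicate 1 ran from 47% to 79.8%. Its correlation of centred levels was 0.06 and 0.02 with the replicate 1 arrays of gammaA7 and cRAF_cMYC, and -0.20 and -0.19 with their replicate 2 arrays. Its nearest array was the unnumbered array of gammaB8 (0.27). It was at least 2-fold apart from the replicate 1 arrays on 340 and 372 probe sets and from the replicate 2 arrays on 640 and 597. In the other lines the correlation of an unnumbered with a numbered array of the same line ran from -0.19 to 0.63, so low values also occur within 1 line label. So by position, correlation and probe sets apart it lay nearer replicate 1. Arrays of other lines were also fewer probe sets apart from the replicate 1 arrays (209 to 1230, median 392.5). From the replicate 2 arrays they were 463 to 1585 apart (median 612). The counts of the unnumbered gammaA7 array lay within these ranges. Neither placement has a test, since each is 1 array.

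**Figure D5:**
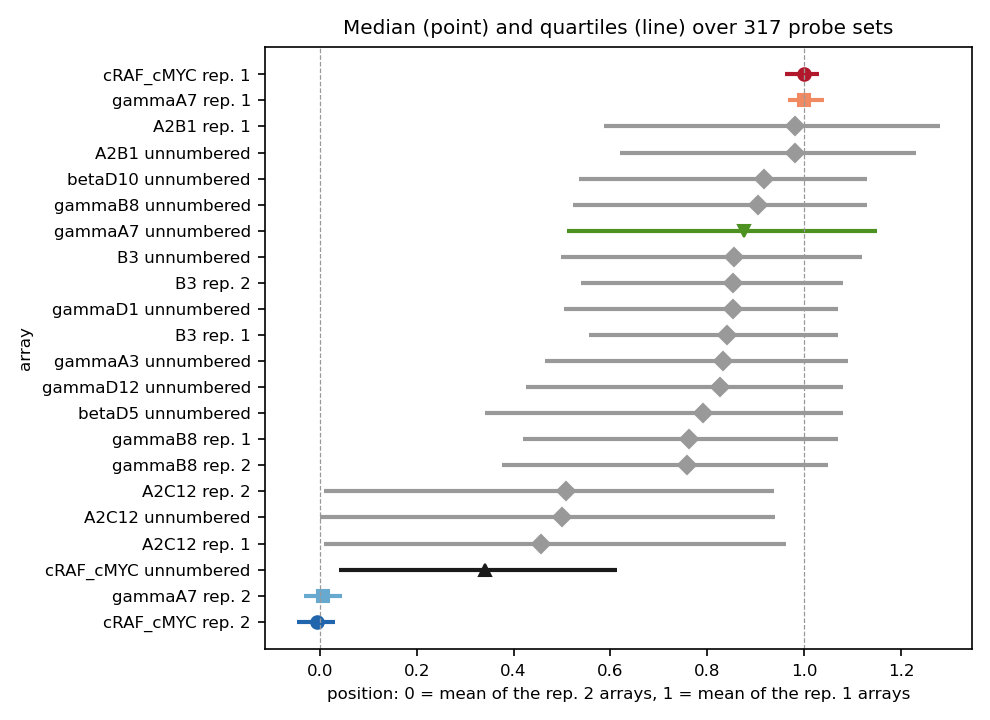
Position of each of the 22 tumour arrays between the mean of the replicate 2 arrays (0) and the mean of the replicate 1 arrays (1); points are medians and lines quartiles over 317 probe sets. Over both directions together, the unnumbered cRAF_cMYC array (0.34) is the nearest to replicate 2 apart from that pair itself. The unnumbered gammaA7 array (0.875) lies among the arrays of other lines (0.456 to 0.981).

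A narrower set of probe sets marked the replicate 2 pair. On 41 probe sets both replicate 2 arrays lay at least 2-fold outside all arrays of the 9 other lines and the replicate 1 pair, 32 above and 9 below. The unnumbered cRAF_cMYC array lay outside the same limits by any amount on 33 of the 41 and by at least 2-fold on 17, and the unnumbered gammaA7 array on 2 and 0. Among the 32 above were Cck, Thy1, Mdk, Fst, Col6a3 and the prostaglandin E synthase gene Ptges, on all of which the unnumbered cRAF_cMYC array was outside by some amount. Among the 9 below were Foxa2, a transcription factor of lung epithelium, and the annexin genes Anxa6 and Anxa8. Foxa2 had 81.0 and 120 on replicate 2, 122 on the unnumbered cRAF_cMYC array and 276 to 606 on other lines. On the exceptions, such as Crabp1, Pla2g7, Usp2 and Itgb7, the unnumbered cRAF_cMYC array lay with the other lines.

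The replicate 1 pair stood outside on 4 probe sets. Ccl11 (a chemokine for eosinophils), Fndc1 and Sfrp1 lay above, and Lgals3 below. The unnumbered gammaA7 array was outside by any amount on 2 of the 4, Ccl11 and Lgals3 (at least 2-fold on Lgals3), and the unnumbered cRAF_cMYC array on none. Ccl11 had 111 and 123 on the replicate 1 arrays, 38.7 on the unnumbered gammaA7 array, 3.40 on the unnumbered cRAF_cMYC array and 1.33 and 18.4 on the replicate 2 arrays. Other lines reached at most 20.8. For Sfrp1 the unnumbered gammaA7 array had 24.96, against 461 and 513 on replicate 1, so it did not follow the pair there.

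A gene of the Y chromosome also divided the arrays by number. Eif2s3y, a translation initiation factor gene at chrY:1010562-1049134 (GRCm38.p6), had 151 and 87.8 on the replicate 2 arrays labelled cRAF_cMYC and gammaA7 and 3.10 and 9.54 on their replicate 1 arrays. The unnumbered cRAF_cMYC array had 77.7 and the unnumbered gammaA7 array 1.92, with 1.07 to 16.6 on the other lines. The arrays labelled gammaA7 thus held both high and low signals, as did those labelled cRAF_cMYC. Uty and Kdm5d, also on the Y chromosome, were at most 19.03 and 12.1 on all 6 arrays, and Xist, expressed from the inactive X chromosome, had 81.4 and 79.7 on replicate 1 against 25.5 and 44.6 on replicate 2. For Xist the unnumbered arrays were above both pairs, at 145 (cRAF_cMYC) and 158 (gammaA7), within the 17.9 to 467 of the other lines, so it did not divide them as Eif2s3y did. The Eif2s3y probe set is of a kind that can share probes with related genes, so its signal may hold more than 1 transcript. In control 1 and control 2 it had 3.19 and 209, where Uty had 3.36 and 25.6 and Xist 359 and 12.9.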

How the data were processed

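RNA of the 4 numbered arrays of cRAF_cMYC and gammaA7, and of the other 20 arrays of the series, was measured on an Affymetrix mouse array of 12488 probe sets. Deposited values are linear intensity signals, made by the authors with GCOS per the submitters' processing notes (version not given in the sources used here). The trimmed mean (2% off each end) was 250.1 to 250.2 on all arrays, so each array had been scaled to 1 level and a difference is relative to the rest of its array. Detection calls were not used here. After 66 Affymetrix controls were removed, 10833 of 12422 probe sets had 1 gene symbol in the platform annotation, 396 had several and 1193 had none, and a probe set with several was tested but not named.

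Levels were log2(signal + 32), computed from the deposited intensities. Probe sets with a signal above the array median on 2 or more arrays were tested. Fits used limma 3.58.1 (R 4.3.3: lmFit and eBayes, with 2 residual degrees of freedom for the 4 arrays and a prior of 4.03), Benjamini-Hochberg adjustment over all 7670 probe sets, and calls at a 2-fold difference or more with an adjusted p under 0.05. The comparison with A2C12, B3 and gammaB8 was an interaction over 10 numbered arrays with a term for each line. Fits were tested on simulated data. Every adjusted p for a single gene is limma's.

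The arrays, the 32 gene lists, the tests and the alternatives were chosen with earlier results of these data known. Named genes are the 12 largest rises and 12 largest falls among called genes, up to 2 members of each list with the largest difference, the 5 genes furthest apart in opposite directions, the 6 largest line differences and Myc. All other named genes were chosen after their values were seen. The list of erythroid markers had no tested member.

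Same-numbered arrays of both lines correlated in the data; the labels do not pair them. Alternatives were other scalings, offsets, a floor, filters and variance models, a block for the line or the replicate number, and leaving out each array or line.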

Additional observations from a re-analysis of the deposited data

Results flagged for a closer look

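The difference between replicate 1 and replicate 2 in cRAF_cMYC and gammaA7 differed from that in A2C12, B3 and gammaB8 by a test of the difference itself (limma, interaction over 10 arrays): 187 probe sets were higher and 209 lower by 2-fold or more with an adjusted p under 0.05.

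The 5 genes furthest apart in opposite directions in the 2 lines are given here, and the difference was not tested. Other genes also had opposite signs in the 2 lines, with smaller differences by this measure. The smaller of the 2 opposite log2 differences was 0.95 for Gss, 0.81 for Tef, 0.80 for Ceacam1, 0.76 for Krtap3-1 and 0.69 for Syk. None of the 5 was called in the comparison of the numbers. Gss, the gene of glutathione synthetase, had 218 and 80.0 on the replicate 1 arrays of cRAF_cMYC and gammaA7 and 71.0 and 185 on their replicate 2 arrays.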

How the results depend on the processing

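With an offset of 100 in place of 32, which shrinks differences of low signals, 105 probe sets were higher and 114 lower on replicate 1, and against the other lines 102 were higher and 117 lower. With no fold threshold 707 were higher and 548 lower. Under the other scalings, offsets, filters and variance models the counts stayed within 1.5 times of 187 and 191. Leaving out 1 array gave 196 to 207 higher and 185 to 200 lower; the lone array is then assumed to vary like the pair. The replicate block, with number as a term beside the line, left the calls for cRAF_cMYC against gammaA7 at 0 (571 at an unadjusted p under 0.05), and each array left out also gave 0. The share nearer replicate 1 for the unnumbered cRAF_cMYC array was 25.3% at a 4-fold threshold, against 35%. For the unnumbered gammaA7 array it was 68.3% with an offset of 1, 80.1% with an offset of 100, 67.9% at a 1.5-fold and 88% at a 4-fold threshold, against 75.4%. The cause of these shifts was not tested, and both arrays kept their side. Of 50 called named genes 39 were tested and called under all 14 alternatives, and 2 more under all but the filter on the mean of the 4 arrays, which left out 7 of the 50; Adm, Gsta4, Atf3, Cdkn2a, Cdkn2b, Eng, Flt1, Hopx and Mmp10 were not. The lipid list had 8 to 12 and the mesothelial list 3 to 4 called members under these alternatives, a count added after seeing the data. Signal over background limits genes near the floor, where the offset sets the size of the difference.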
